A study of Mus musculus with 15 samples.

Results

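Ccl21b, Ccl21c and Ccl28 are 3 of the 112 genes that the arrays name by a symbol, among 59709 distinct probes. Each was read by 1 probe printed in 1 spot, found by the RefSeq transcript that the array design gives for it (CUST_301_PI426409190 for Ccl21b, CUST_291_PI426409190 for Ccl21c and CUST_305_PI426409190 for Ccl28). All 3 probes passed the filter on dim probes, which left 48294 features in all and 85 with a symbol. The genes were selected on their measured differences between the groups described here, so their levels and differences are a description and carry no test. A further Ccl21 copy on the array, Gm13304 (CUST_268_PI426409190), is described beside them.

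CCL21 is a chemokine that binds the receptor CCR7 and guides dendritic cells and T cells into lymphoid tissue and along lymphatic vessels. The mouse genome carries several near-identical Ccl21 copies on chromosome 4, whose products differ little, and a probe to one can read the others. In the brain CCL21 is known from damaged neurons, which can signal with it to microglia. CCL28 is a chemokine of mucosal epithelia that binds CCR10 and CCR3 and attracts antibody-secreting cells and eosinophils.

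Whole-brain RNA was measured from wild-type (WT) C57BL mice and from APP/PS1 mice, a transgenic model of Alzheimer's disease, at 1, 3, 6 and 9 months of age. The labels do not name the transgenic line or its promoter. They give WT mice no age, although the design text speaks of age-matched controls, so age and genotype cannot be told apart against WT. They list 1 male and 2 females in each group, although the design text speaks of males. The labels name no treatment, and all groups share the strain label. In all, 14 arrays were used: WT replicates 1 and 2 and replicates 1 to 3 at each age. Replicates 2 and 3 at 1, 3 and 6 months gave near-identical arrays (residual correlations of 0.8 to 0.825, where no other of 88 pairs of arrays exceeded 0.24) and each such pair was averaged and counted as 1 sample. The sample number is therefore 2 for WT, 2 for each of the ages 1, 3 and 6 months, and 3 for 9 months. The sample titles give each array its own number, also within these pairs. Counting each pair as 1 sample therefore rests on the arrays and goes against the titles. The labels say no more about where the samples came from, so spreads are those between these samples and may in part be technical.

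On each array 68.1% to 82.4% of spots exceeded background clearly by the scanner's flag, and the 75th percentile of the signal, the level to which each array was scaled, ran from 384 to 566 intensity units. All 9-month arrays were scanned at 354 V, while the WT arrays and replicates 1 and 2 of the other ages were scanned at 356 V and their replicates 3 at 355 V. Scan setting and the 9-month group therefore cannot be told apart. In brain homogenate, a change in the number of cells of a type and a change in RNA per cell cannot be told apart either. None of 37 fixed markers of brain, lymphatic, lymphoid and epithelial cell types, including Snap25, Gfap, Cx3cr1, Prox1, Cd3e and Epcam, was among the named probes, so neither the tissue label nor a cell source of these chemokines could be checked.

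The stretches upstream of the chemokine genes are shown because the probes moved together at 9 months. They come from RefSeq (build GRCm38.p6, used here for names and sequences, since the build of the array design is not given in the sources used here). Each run is the 250 bases before the annotated start, 5′ to 3′, on the plus strand, with motif matches in capitals. No entry for Ccl21c was in the sequences used, so its upstream stretch was not examined.
Gm13304, chr4:42114537-42114786: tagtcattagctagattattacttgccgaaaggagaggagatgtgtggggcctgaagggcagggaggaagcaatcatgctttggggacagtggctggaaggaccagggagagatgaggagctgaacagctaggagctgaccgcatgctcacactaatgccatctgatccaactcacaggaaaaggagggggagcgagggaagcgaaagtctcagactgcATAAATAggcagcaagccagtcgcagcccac
Ccl21b, chr4:42172870-42173119: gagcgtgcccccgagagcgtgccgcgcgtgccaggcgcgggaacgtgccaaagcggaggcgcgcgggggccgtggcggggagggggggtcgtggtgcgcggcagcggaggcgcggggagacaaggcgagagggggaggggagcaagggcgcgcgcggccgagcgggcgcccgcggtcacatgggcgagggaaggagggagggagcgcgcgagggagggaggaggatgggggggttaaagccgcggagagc
Ccl28, chr13:119623569-119623818: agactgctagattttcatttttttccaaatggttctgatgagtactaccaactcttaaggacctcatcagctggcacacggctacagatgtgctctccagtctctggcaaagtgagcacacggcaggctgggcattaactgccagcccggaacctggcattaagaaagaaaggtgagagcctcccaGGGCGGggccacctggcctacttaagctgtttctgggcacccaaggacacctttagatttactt

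The Gm13304 stretch matched the RefSeq entries of Gm10591 at 250 of 250 bases, of Ccl21d at 249 and of Ccl21a at 247, all copies of the same gene. Against the entry named Ccl21b it matched at 82 of 250 bases (32.8%), and against Ccl28 at 75 (30%). Each count is the highest over shifts of a few bases either way, without gaps, so unrelated stretches can score above a single alignment. Ccl21b and Ccl28 were not compared with each other. The Ccl21b entry had 78% G and C, against 53.6% for Gm13304 and 50.8% for Ccl28. The capitals in Gm13304 mark ATAAATA at position -31 from the start, a sequence like a TATA box that 5.6% of 32851 promoter windows hold. The capitals in Ccl28 mark GGGCGG, the GC box bound by Sp1, at position -64; 35.7% of windows hold it. Windows run from 250 bases before the start to 50 after it, and both strands were read. In those last bases the Ccl21b entry held GGGCGG at position +20 and Ccl28 held the AP-1 motif TGANTCA at +21, which 7.81% of windows hold. The windows of Gm13304, Ccl21b and Ccl28 held neither TATAAA (13.6% of windows) nor GGGANTTTC for kappa B (1.11%). They also lacked TTCNNNGAA for STAT (8.3%) and CACGTG for an E-box (7.15%). ATAAATA and GGGCGG were added to the search after the sequences were seen, and no searched motif was shared by the 3 windows. A match is a description of these letters and not a measured binding site.

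Ccl21b, Ccl21c and Ccl28 were each far higher at 9 months than in any other group, and each lay near or below its WT level at the earlier ages. The probes differed in where they started. Both Ccl21 probes lay close to WT at 1 month and at most 1.52-fold lower at 6 months, while Ccl28 lay 2.52-fold to 3.88-fold below WT at 1, 3 and 6 months.

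The processed signal of Ccl21b, in background-subtracted intensity units, was 313 and 373 in WT. It was 411, 479 and 458 at 1 month, 265, 319 and 305 at 3 months and 201, 389 and 384 at 6 months. At 9 months it was 9091, 10286 and 9280. The 3 arrays at 9 months lay far above the other 11, which stayed between 201 and 479, and the lowest of those came from the male at 6 months. On the scale of log2 signal minus the array's 75th percentile, Ccl21b averaged -0.25 ± 0.17 in WT (SD, n = 2), -0.13 ± 0.097 at 1 month, -0.46 ± 0.11 at 3 months, -0.85 ± 0.43 at 6 months (n = 2 each) and 4.22 ± 0.06 at 9 months (n = 3). The difference from WT at 9 months was 4.46 (SE 0.16), or 22-fold.

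The processed signal of Ccl21c was 591 and 595 in WT. It was 722, 690 and 706 at 1 month, 494, 456 and 461 at 3 months, and 468, 822 and 824 at 6 months. At 9 months it was 10928, 11502 and 11265. The 9-month arrays were again above all others, and at 6 months the male array lay below both female arrays of the near-identical pair. On the scaled log2 axis Ccl21c averaged 0.55 in WT, with both samples at 0.55, then 0.56 ± 0.069 at 1 month, 0.27 ± 0.13 at 3 months, 0.31 ± 0.33 at 6 months and 4.45 ± 0.026 at 9 months (SD, n as for Ccl21b). The difference from WT at 9 months was 3.90 (SE 0.12), or 15-fold.

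The Ccl28 probe gave a dim spot outside the 9-month group. Its processed signal was 71.8 and 64.4 in WT. It was lower at the early ages, with 35.4, 30.1 and 27.7 at 1 month, 26.2, 23.7 and 15.3 at 3 months and 19.8, 22.3 and 25.2 at 6 months. At 9 months it was 777, 808 and 785. The 9 arrays at 1, 3 and 6 months lay below both WT arrays, and the 3 arrays at 9 months lay above everything else. Replicate 3 at 3 months, at 15.3, was not well above background; on the other 13 arrays the spot was.

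On the scaled log2 axis Ccl28 averaged -2.57 ± 0.12 in WT (SD, n = 2), -3.91 ± 0.24 at 1 month, -4.14 ± 0.38 at 3 months, -4.53 ± 0.06 at 6 months (n = 2 each) and 0.62 ± 0.04 at 9 months (n = 3). The difference from WT at 9 months was 3.20 (SE 0.18), or 9.18-fold. The scanner's own error was 10% to 26.3% of the Ccl28 signal, against about 10% for the Ccl21 probes. The local background around the chemokine spots, 27.8 to 35.5 in WT and 26.1 to 35.3 at 9 months, was as large as the subtracted Ccl28 signal at the early ages. Without subtraction of background the Ccl28 differences from WT were -0.70 at 1 month, -0.55 at 3 months and -1.0 at 6 months, and 2.62 at 9 months. With the normexp correction, which was run with an offset of 50 units, they were -0.92, -0.73, -1.13 and 2.15. Under normexp the median of all features stood at -0.241, -0.162, -0.250 and -0.251 in the same comparisons. The direction held under both. Units left in or added shrink the log2 differences of a dim spot by construction, so nothing is read from their smaller size.

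**Figure D1:**
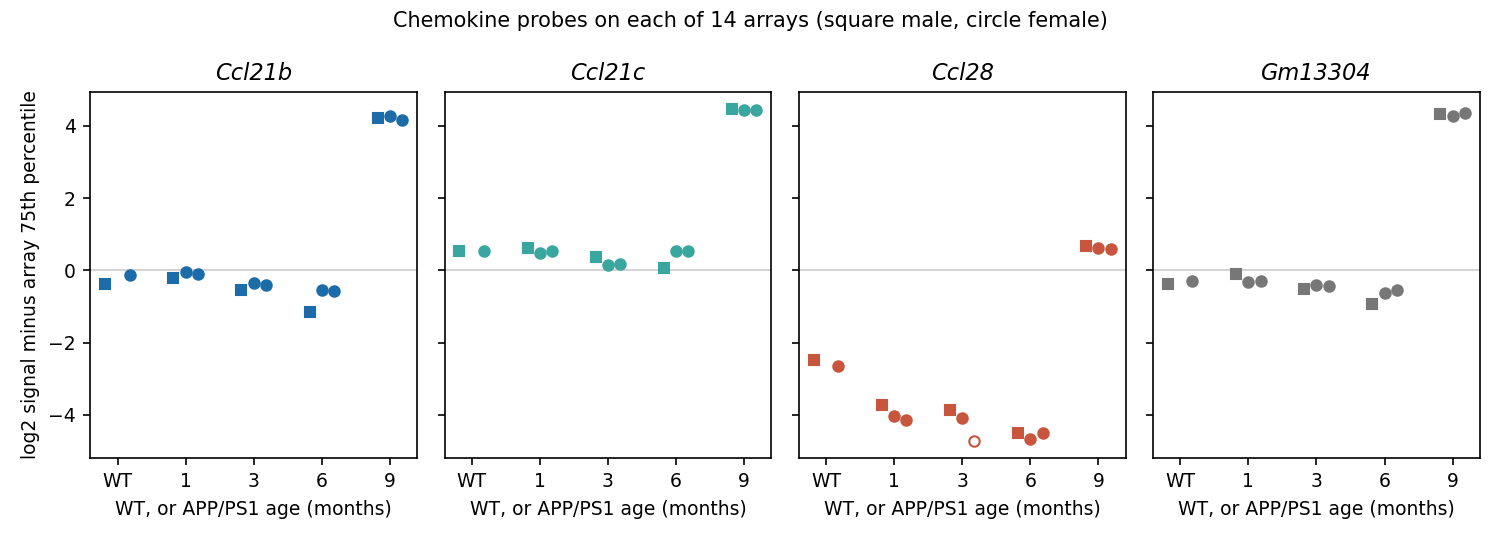
Log2 processed signal minus the array's 75th percentile (y axis) for Ccl21b, Ccl21c, Ccl28 and the further Ccl21 copy Gm13304 on each of 14 arrays, by group (x axis: WT, or age of APP/PS1 mice in months). Squares are males, circles females, and the open circle is the array where the Ccl28 spot was not well above background; each panel shows the 9-month arrays above all others, and Ccl28 below its WT arrays at 1, 3 and 6 months.

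**Figure D2:**
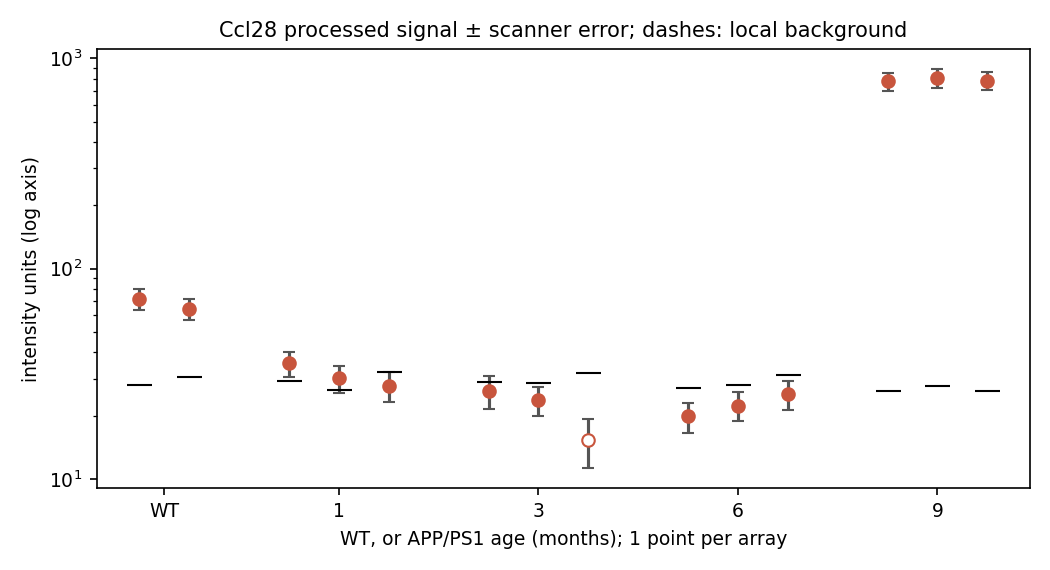
Processed signal of the Ccl28 spot in intensity units (y axis, log scale) on each array, by group (x axis), with bars for the scanner software's error and dashes for the mean local background around the spot. The signal at 1, 3 and 6 months, 15.3 to 35.4, lies near the height of the background dashes, and the 9-month signal, 777 to 808, lies far above them.

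All 3 chemokine probes had every 9-month array above all 11 other arrays. Over all features 10.4% did so, 5016 of 48294. Since the genes were selected on this contrast, nothing is read from that count. For the comparison at 9 months, limma called 18.5% of all features higher and 14.6% lower at an adjusted p under 0.05. Among features of any kind, 66 had a larger 9-month difference than Ccl21b, 103 a larger one than Ccl21c and 169 a larger one than Ccl28. The filter asked for 3 or more arrays well above background. A feature bright only on the 3 arrays at 9 months could therefore pass, while one bright only on the 2 WT arrays could not. The shares and ranks over all features include such features. Among the 85 genes with a symbol, 1 lay above Ccl21b, 2 above Ccl21c and 3 above Ccl28, and the top place was Gm13304.

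Gm13304 followed the Ccl21 probes, Ccl21b more closely than Ccl21c outside 9 months. Its signal was 308 and 332 in WT, 437, 395 and 402 at 1 month, 269, 309 and 301 at 3 months and 234, 362 and 386 at 6 months. At 9 months it was 9730, 10278 and 10711. On the scaled axis its difference from WT was 4.66 (SE 0.10) at 9 months, or 25.2-fold, and -0.42 (SE 0.11) at 6 months. The Ccl21b, Ccl21c and Gm13304 spots lay apart on the array, at rows 235, 352 and 70. The reference table lists Ccl21b and Ccl21c among the synonyms of Gm13304, and no probe sequences were used here, so these 3 readings may share transcripts and are not independent measurements of 3 genes.

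**Figure D3:**
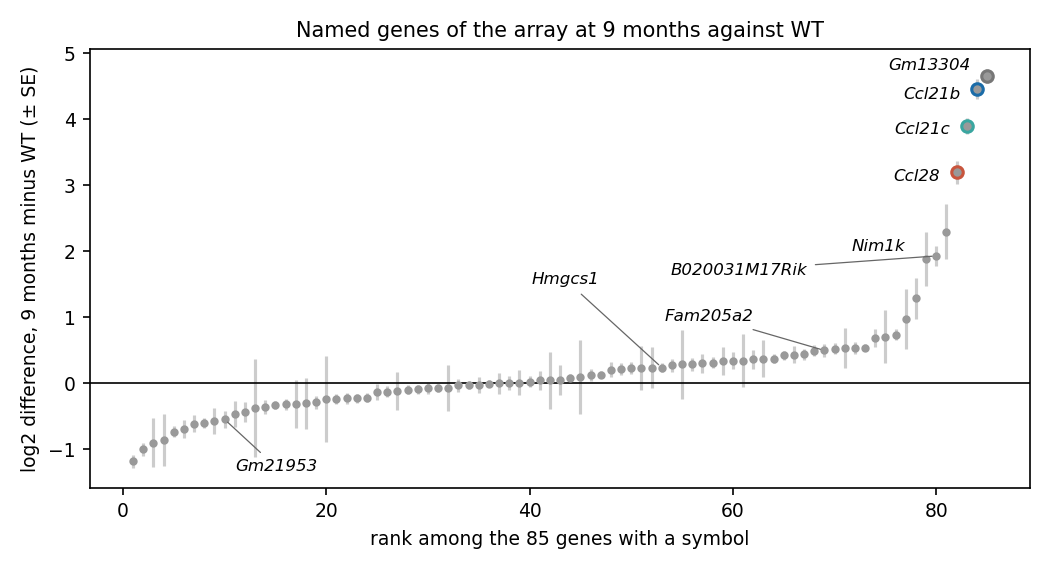
Log2 difference between 9 months and WT (y axis, bars: SE from the limma fit) for the 85 genes with a symbol, ordered from lowest to highest (x axis: rank). The 4 chemokine probes take the 4 highest places, from 3.20 for Ccl28 to 4.66 for Gm13304.

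Before 9 months the Ccl21 probes and Ccl28 took different courses. At 1 month the difference from WT was 0.11 (SE 0.17) for Ccl21b and 0.01 (SE 0.13) for Ccl21c, and -1.34 (SE 0.19) for Ccl28. At 3 months it was -0.21, -0.28 and -1.57, and at 6 months -0.60, -0.24 and -1.96, with the same errors. Ccl28 alone of the 3 had its 9 arrays at 1, 3 and 6 months all below both WT arrays. Over all features 5.8% did so, 2800 of 48294. The shares called higher and lower against WT were 5.41% and 6.43% at 1 month, 7.25% and 5.01% at 3 months and 13.6% and 9.89% at 6 months, printed as the setting of these values and not as support for them. All these comparisons share the same WT arrays.

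Among the transgenic mice alone, the differences between 6 months and 1 month were -0.72 (SE 0.17) for Ccl21b, -0.25 (SE 0.13) for Ccl21c and -0.62 (SE 0.19) for Ccl28. Limma called 14.3% of features higher and 10.4% lower in that comparison. Leaving out 1 of the 6-month samples gave -0.41 (without the male) or -1.02 for Ccl21b and -0.02 or -0.49 for Ccl21c, and scaling on the reference genes gave -0.03 for Ccl21c. For Ccl28 the value was -0.21 with normexp, -0.30 without subtraction and -0.40 with scaling on the reference genes. The Ccl21 values at 6 months rest on samples that differ: without the male sample the Ccl21b difference from WT was -0.30 and without the female pair -0.91, and for Ccl21c the values were -0.00 and -0.48. With arrays scaled on the reference genes the 6-month values were -0.22 for Ccl21b and 0.14 for Ccl21c. Between 6 and 9 months the differences were 5.06 (SE 0.16) for Ccl21b, 4.14 (SE 0.12) for Ccl21c and 5.15 (SE 0.18) for Ccl28, or 33.5-fold, 17.7-fold and 35.6-fold. The Ccl28 step depended on the handling of background, being 9.65-fold with normexp and 12.2-fold without subtraction, where Ccl21b stood at 26.2-fold and 27.6-fold. The order of the genes by this step therefore turned. Measured from 1 month in place of 6, they were 4.35, 3.89 and 4.53.

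**Figure D4:**
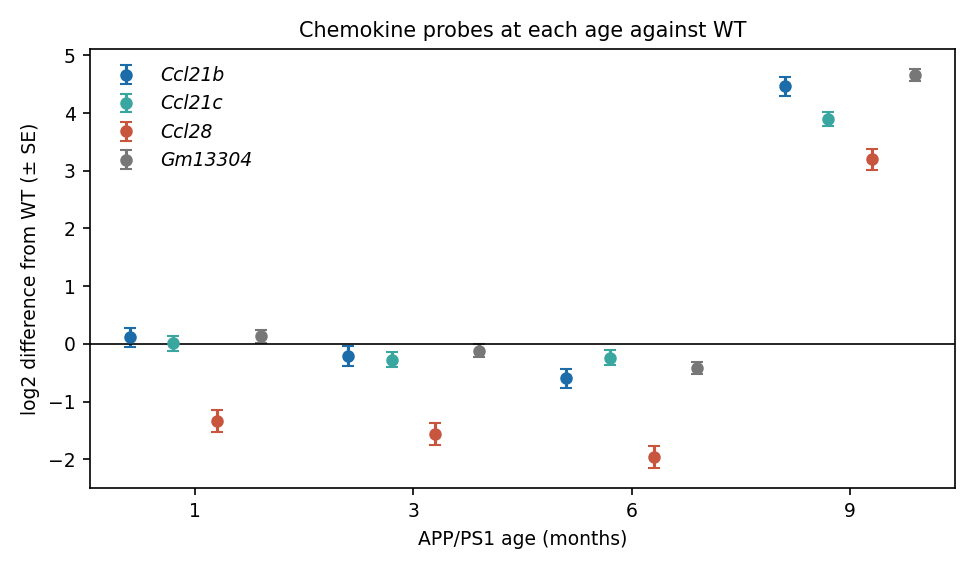
Log2 difference from WT (y axis, bars: SE from the limma fit) of Ccl21b, Ccl21c, Ccl28 and Gm13304 at each age of the APP/PS1 mice in months (x axis). The Ccl21 probes stay between -0.60 and 0.13 until 6 months, Ccl28 lies between -1.34 and -1.96, and all 4 are above 3 at 9 months.

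The order of group means was 9 months, 1 month, WT, 3 months and 6 months for Ccl21b. For Ccl21c it was 9 months, 1 month, WT, 6 months and 3 months. For Ccl28 it was 9 months, WT, 1 month, 3 months and 6 months. The pooled SD between samples was 0.2 for Ccl21b, 0.15 for Ccl21c and 0.19 for Ccl28. It is set beside the steps as a description and not as a test. The step from 9 months down to the next group was over 3 log2 units for each gene, though 2.62 for Ccl28 without subtraction of background. The step from WT to 1 month in Ccl28 was -1.34, and -0.70 without subtraction. Between 1 month and WT, Ccl21b and Ccl21c each differed by less than their pooled SD. So did Ccl21c between 6 and 3 months (0.04, SE 0.13). From WT down, the Ccl21b step to 3 months was -0.21 (SE 0.17), and the Ccl21c step to 6 months was -0.24 (SE 0.13). From 3 to 6 months the steps were -0.39 for Ccl21b (SE 0.17) and -0.39 for Ccl28 (SE 0.19), and Ccl28 differed between 1 and 3 months by -0.23 (SE 0.19).

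The likeness of the profiles was measured as Pearson's r over the 11 samples, with and without the 9-month samples, as a description of points that share arrays, scaling and scan setting. Ccl21b and Ccl21c correlated at 0.996 over 11 samples and at 0.74 over the 8 without 9 months. Each correlated with Ccl28 at 0.961 over 11 samples, and without 9 months at 0.46 for Ccl21b and 0.53 for Ccl21c. The 9-month samples therefore carry most of the likeness between the Ccl21 probes and Ccl28. Gm13304 and Ccl21b stayed alike without them, at 0.94, while Gm13304 and Ccl21c stood at 0.73.

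Among other genes with a symbol, Gm13304 (0.998), Nim1k (0.936) and Gusb (0.871) had profiles most like Ccl21b, and the same genes ranked highest for Ccl21c (0.998, 0.929 and 0.873). Without 9 months the values with Ccl21b were 0.52 for Nim1k, a protein kinase gene, and 0.3 for Gusb, which encodes the lysosomal enzyme beta-glucuronidase. For Ccl28 the most alike were Gm13304 (0.96), Fam177a2 (0.94) and Fam205a2 (0.914). Fam205a2 kept its likeness to Ccl28 without the 9-month samples, at 0.92, and Fam177a2 stood at 0.79. The Fam205a2 differences from WT were -0.56 (SE 0.10) at 1 month, -1.10 at 3 months, -1.41 at 6 months and 0.50 (SE 0.09) at 9 months. It was picked here for its likeness to Ccl28, so these values are a description.

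Features without a symbol came closer still to Ccl28. ASMM9PARTA013927 correlated with it at 0.995 over 11 samples and 0.96 over 8, and ASMM9PARTA019195 at 0.993 and 0.94. Their 9-month differences from WT were 2.73 and 2.65. ASMM9PARTA039789 correlated at 0.99, but it was not well above background on any WT array or on any of the 9 arrays at 1, 3 and 6 months. For the Ccl21 probes the closest coded features were ASMM9PARTA010442, at 0.998 with both, and ASMM9PARTA032336, at 0.997 with Ccl21c. Above an r of 0.99 lay 19 features for Ccl21b, 17 for Ccl21c and 6 for Ccl28, of 48294.

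**Figure D5:**
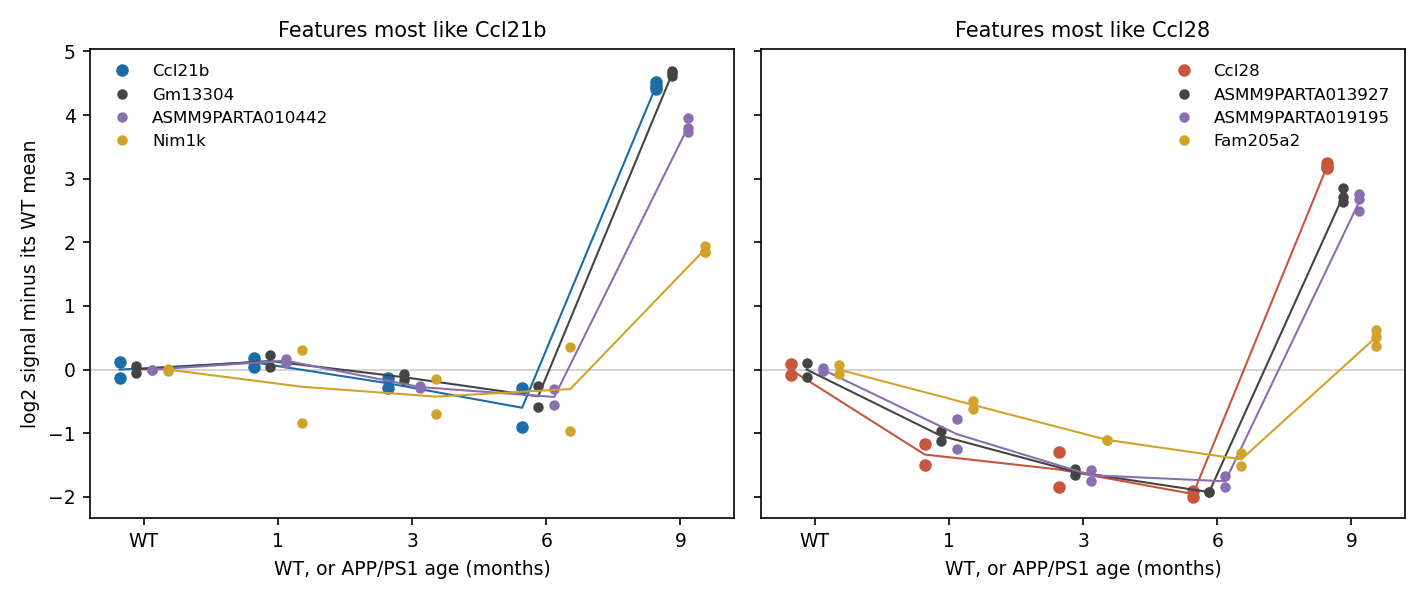
Log2 signal minus the feature's own WT mean (y axis) of Ccl21b, Ccl28 and the features most like each, in the 11 samples by group (x axis); points are samples and lines join group means. In the right panel ASMM9PARTA013927, ASMM9PARTA019195 and Fam205a2 dip below WT until 6 months and rise at 9 months, as Ccl28 does.

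The array offered little of the pathways around these ligands. Of 67 chemokine and chemokine receptor genes in the reference table, the probes with a symbol covered 3, and these were Ccl21b, Ccl21c and Ccl28. None of the 11 genes listed for their receptor axes, among them Ccr7, Ackr4, Ccl19, Ccr3 and Ccr10, was covered. Of 16 genes of glia around amyloid plaques, 1 was covered. This was B2m, encoding beta-2 microglobulin of the MHC class I complex, which fell at 1 month (-0.69, SE 0.06) and 6 months (-0.70), stood at 0.00 at 3 months and rose at 9 months (0.54, SE 0.05; limma adjusted p 1.19e-04, 3.64e-05, 0.999 and 7.82e-05).

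At 9 months 2 of the 15 reference genes printed in many copies on the array rose and 5 fell, with a median difference of -0.10. The 2 that rose were Gusb and B2m, the gene given above. Of all 85 genes with a symbol, which include these 15, 22 were higher and 15 lower (median 0.05). The shares of all features at 9 months were 18.5% higher and 14.6% lower. At 1, 3 and 6 months none of the 15 rose and 3, 3 and 4 fell. The shares of all features called higher there were 5.41%, 7.25% and 13.6%, and lower 6.43%, 5.01% and 9.89%. The 1200 negative control spots had median signals of 3.81 to 4 in WT and 4.67 to 5.97 at 9 months, far below the lowest chemokine signal at 9 months. Their medians were 3.27 to 3.56 at 1 month, 2.92 to 4.3 at 3 months and 3.43 to 7.25 at 6 months. The Ccl28 signal at those ages, 15.3 to 35.4, lay much closer to them.

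Genes that lie near the chemokine genes on their chromosomes were described as well. Within 15 gene places of Ccl21b the array covered 4 genes. At 9 months 2 were higher (Gm13304 and Fam205a2), 1 fell and 1 did not pass the test. Gm13304 may share transcripts with Ccl21b, which was selected on this contrast, so its rise is not a separate result. Fam205a2 stood at 0.50 (SE 0.09). The gene that fell was Gm21953 (-0.55, SE 0.13, limma adjusted p 0.00914), and Gm13305 stood at 0.21 (adjusted p 0.102). Over all features 18.5% were called higher and 14.6% lower. At 6 months 3 of the 4 were lower and none higher, against 9.89% and 13.6% of all features; Gm13304, which may share transcripts with Ccl21b, is among the 3.

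Within 15 places of Ccl28 the filter kept 5 of 6 covered genes, of which 3 rose at 9 months and none fell, against 18.5% and 14.6% of all features. They were B020031M17Rik (1.93, SE 0.16, limma adjusted p 2.25e-05), Nim1k (1.88, SE 0.41, adjusted p 0.00624) and Hmgcs1, which encodes a synthase of the cholesterol pathway (0.24, SE 0.07, adjusted p 0.0191). Zfp131 stood at 0.23 (adjusted p 0.081) and Tcstv1 at -0.85 (adjusted p 0.13). None of these 5 fell at 1, 3 or 6 months, against 6.43%, 5.01% and 9.89% of all features. With 5 genes nothing is read from that count. At 6 months 2 rose and at 3 months 1 rose, against 13.6% and 7.25% of all features. Nim1k, 3 places from Ccl28, averaged -3.42 ± 0.022 in WT (SD, n = 2) and -1.54 ± 0.049 at 9 months (n = 3). At the early ages it averaged -3.70 ± 0.82 at 1 month, -3.85 ± 0.4 at 3 months and -3.73 ± 0.93 at 6 months (n = 2 each). Its spot was well above background on 8 of the 9 arrays at these ages. Neighbours of Ccl21c were in the fixed plan but were not counted as a list, because its table entry does not lie among the other Ccl21 genes. Near that entry, 9 places away, the array covered Dhrsx. It stood at 0.38 at 9 months (SE 0.07, limma adjusted p 0.00369), where 18.5% of all features were called higher.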

How the data were processed

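Cy3-labelled RNA of mouse brains was read on Agilent arrays with a single colour, per the labels. The authors' deposited spot intensity is a background-subtracted processed signal, made by Feature Extraction (version 10.7.1.1 in the submitters' processing notes) as recorded per the file headers; the files also hold deposited flags and errors. A deposited value table equalled the local background intensity and was not used for expression. Its column is the only one of the third WT sample, which entered no comparison.

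Log2 signal minus the array's 75th percentile was fitted with limma 3.58.1 (lmFit, eBayes with trend, R 4.3.3) over 48294 features well above background on 3 or more arrays, with Benjamini-Hochberg adjustment at 0.05. 134 probes with a non-uniform spot were left out. Near-identical arrays (r above 0.5) were averaged. Replicate numbers follow accession order and pair no samples. Named genes were the chemokines, for each the 3 genes with a symbol and 3 features of highest correlation, and the covered members of fixed lists. The members and lists were chosen with earlier results of these data known. The fit was tested on simulated data. Alternatives changed the background correction, scaling, filter, averaging, groups fitted and samples. The number of arrays limits the precision.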

Additional observations from a re-analysis of the deposited data

Results flagged for a closer look

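Ccl28 moved against WT in opposite directions at the early ages and at 9 months. In each sample at 1, 3 and 6 months it was lower, by a mean difference of -1.34, -1.57 and -1.96 on the log2 scale, and in each sample at 9 months it was higher, by 3.20.

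Ccl21b was lower than the WT mean in each sample at 3 months (-0.21, SE 0.17) and 6 months (-0.60, SE 0.17). In each sample at 9 months it was higher (4.46, SE 0.16). Its 3-month female pair, at -0.38, was level with WT replicate 1, at -0.37. Ccl21c averaged below WT at 3 months (-0.28, SE 0.13) and 6 months (-0.24, SE 0.13), against 3.90 at 9 months. However, 1 of its 6-month samples, at 0.55, equalled the WT level to 2 decimals. The difference between ages was not tested for any of these, because the genes were selected on these contrasts. All of them share the same 2 WT samples.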

How the results depend on the processing

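The 9-month difference of each chemokine stayed positive under the 20 alternatives run for it. Many of these could not move the value by construction, and nothing is read from them. They changed the filter or the averaging, fitted the compared groups alone, or left out samples of 1, 3 or 6 months. Over all alternatives the difference ranged from 4.17 to 4.58 for Ccl21b, 3.74 to 4.00 for Ccl21c and 2.15 to 3.29 for Ccl28. The values moved beyond the spread between samples with normexp (4.17, 3.75 and 2.15) and with the median signal without subtraction (4.24, 3.74 and 2.62), both chosen after seeing the data because the planned mean signal is not a column used here. Ccl21c at 6 months reversed to 0.14 when arrays were scaled on the reference genes, where the median of all features was 0.456. The other early values are in ranges: Ccl21b at 6 months -0.91 to -0.22, and Ccl28 -1.51 to -0.70 at 1 month, -1.84 to -0.55 at 3 months and -2.14 to -1.0 at 6 months.

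Counts of called features moved more. With the 14 arrays as separate samples they were 11496, 11213, 17486 and 18443 for 1, 3 and 6 months against WT and 6 against 1 month, where 5717, 5922, 11339 and 11918 were called. With the compared groups alone they were 2822, 2410, 4533 and 6562. For 1 and 3 months against WT they were 3401 and 3772 without the 9-month arrays, 3249 and 3745 with the 356 V arrays alone, and 9192 and 9073 with the scan setting as a block (both scan alternatives chosen after seeing the data). Normexp gave 3771 at 3 months and scaling on reference genes 22975 at 6 months. Leaving out 1 sample gave 2357 to 6701 for 1 month against WT, 2838 to 6823 for 3 months against WT, 7690 to 11096 for 6 months against WT, 7890 to 11657 for 6 months against 1 month. The counts that moved by over 1.5 times were, for 1 month, 2824 and 3422 without WT replicates 1 and 2 and 2357 and 2395 without the 1-month samples of replicates 1 and 2; for 3 months, 3438 and 3601 without WT replicates 1 and 2 and 2838 without replicate 1; and for 6 against 1 month, 7890 without replicate 2 of 1 month. The 9-month count of 15994 ranged from 11365 without WT replicate 1 to 19188. The share of calls that were higher was 45.7%, 59.2%, 57.9%, 55.8% and 57.8% in the 5 comparisons (6 against 1 month last), and with scaling on reference genes 78.3%, 76.6%, 93.6%, 70.3% and 83.1%. With normexp it was 37.7% at 6 months and 37.2% at 9 months, where the median of all features shifted to -0.250 and -0.251. The cause of these changes was not tested. Each member has 1 probe, so the alternative of other probes was not run. Dim signal limits Ccl28 at the early ages.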
